A study of Mus musculus with 2 samples.

Results

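A set of 10 genes of the Kruppel-like factor (KLF) family was described in whole mouse uterus on gestational day 4, by RNA sequencing of 1 Mettl14 d/d library and 1 Mettl14 f/f library. They are Klf2, Klf3, Klf4, Klf5, Klf6, Klf9, Klf10, Klf11, Klf13 and Klf15, taken by symbol, and they are 10 of 55363 genes in the deposited files. The rule used no measured value, and all 10 reached 1 FPKM (fragments mapped to a gene, divided by its length and by the library's mapped fragments) in both libraries. In the usual notation d/d stands for deleted and f/f for floxed alleles, and Mettl14 encodes the RNA-binding subunit of the complex that writes N6-methyladenosine on RNA. Females of both genotypes were 6 to 8 weeks old, had mated with fertile males and were pregnant, with the plug day counted as day 1. The Cre driver behind the deletion, and whether a library came from 1 animal or from several, were not stated in the labels.

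KLF proteins are transcription factors that bind GC-rich and CACCC sequences of gene promoters through zinc fingers at the C terminus, and they share these sites with the related Sp proteins. Some mainly activate (Klf2, Klf4, Klf5, Klf6), some recruit the corepressor CtBP (Klf3) and some recruit the corepressor Sin3a (Klf9, Klf10, Klf11, Klf13). In the uterus Klf9 is a partner of the progesterone receptor, Klf5 is needed in the epithelium for implantation in mice, and Klf4 and Klf15 have opposite actions on DNA replication genes of the hormone-treated epithelium.

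Each genotype had 1 library, so no value has an error between animals, no test was possible, and higher or lower refers to these libraries rather than to the genotypes. Mettl14 was 3.21 FPKM in the d/d library and 13.6 FPKM in the f/f library. Depth was estimated from the steps of low FPKM values at 20650000 fragments in d/d and 17700000 in f/f, with 66.1% and 68.9% of 939 and 922 low values within 0.1 of a whole fragment, in d/d and f/f in turn. Fragments per gene were approximated from the shortest annotated coding transcript. On that length the KLF values rested on 59 to 2200 fragments in d/d and 64 to 3000 in f/f, with Klf11 lowest in both. Coding transcripts of Klf11 run from 380 to 4086 bases, and those of Klf15 from 1545 to 2482. The counts are therefore low estimates for genes with longer transcripts, and which gene is lowest depends on the length taken. Actual counts and their intervals are not known. The call of higher or lower required 2-fold or more on the scale of FPKM + 1, with a d/d over f/f log2 ratio of at least 1 in size. Every one of the epithelium, stroma, smooth muscle and endothelium markers checked was above 0 in both libraries, as whole uterus should give.

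Klf4 was higher in the d/d library, Klf2, Klf9 and Klf15 were lower, and the other 6 KLF genes did not reach 2-fold. Over the 16263 genes that reached 1 FPKM in one library or both, 18.4% passed this rule, 10.2% as higher and 8.28% as lower. Among the 10 KLF genes 1 was higher, or 10%, which is the share over all genes, and 3 were lower, or 30%. Their median log2 ratio was -0.15, against -0.01 over all genes, with 4 ratios above 0 and 6 below. The median size of the log2 ratio was 0.90 in the KLF genes and 0.41 over all genes. At 1.5-fold 3 KLF genes were higher and 3 lower, where 18.8% and 17.8% of all genes were. At 3-fold Klf4 alone was higher and Klf15 alone lower, where 4.62% and 3.27% of all genes were.

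**Figure D1:**
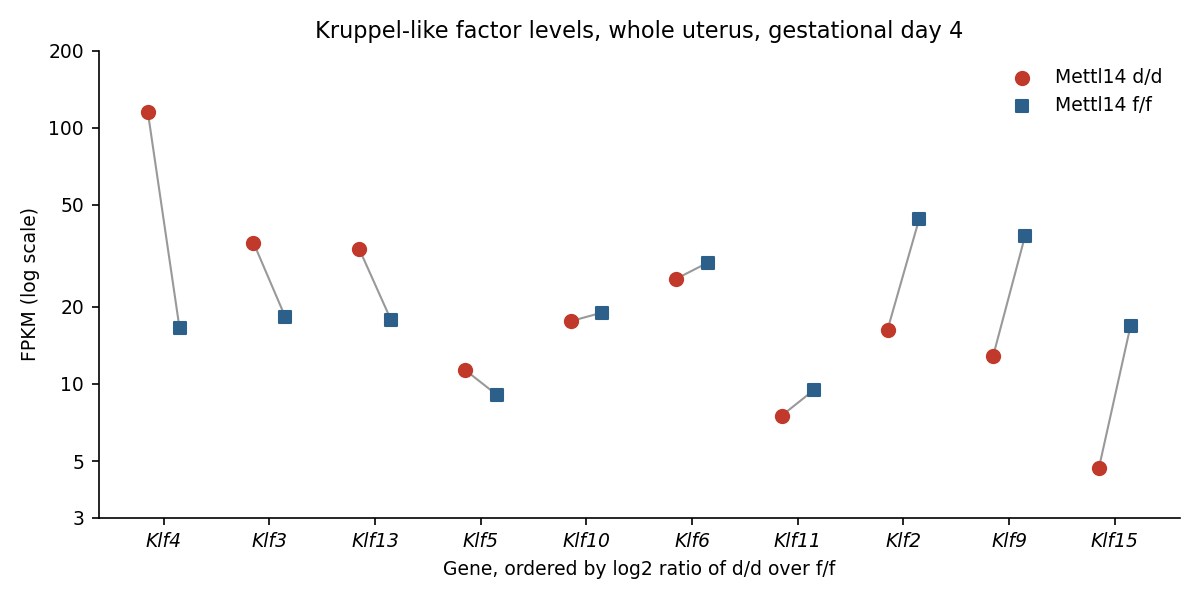
Levels of the 10 KLF genes in FPKM on a log axis, with the Mettl14 d/d library as circles and the Mettl14 f/f library as squares, 1 library each and no error bars. Klf4 stands at 115 FPKM in d/d against 16.6 in f/f, and the 3 genes at the right, Klf2, Klf9 and Klf15, lie lower in d/d.

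Klf4 is a factor of epithelial barrier differentiation that also acts in endothelium and macrophages. It was 115 FPKM in d/d and 16.6 FPKM in f/f, a 6.97-fold higher level with a log2 ratio of 2.73. At or above that ratio lay 238 of the 16263 genes. Epithelium markers were higher in the same library, with the values given further on, and in whole tissue more cells of a type and more RNA per cell cannot be told apart. The gene (ENSMUSG00000003032) occupies positions 55527143 to 55532466 of chromosome 4, minus strand, in GENCODE M21 on GRCm38, the build also called mm10. Klf4 was the most abundant of the 10 genes in d/d and the eighth in f/f, and it made up 41.1% of their summed FPKM in d/d and 7.57% in f/f. The sum was 281 FPKM in d/d and 219 FPKM in f/f. Without Klf4 it was 165 FPKM in d/d and 202 FPKM in f/f, so Klf4 alone set the direction of the family's total.

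Klf5 is the closest partner of Klf4 in epithelia, where it is known for driving proliferation. It was 11.4 FPKM in d/d and 9.08 FPKM in f/f, with a log2 ratio of 0.29 that 5001 genes matched or passed. The level of Klf4 over that of Klf5 was 10.2 in d/d and 1.82 in f/f. Such a ratio within a library does not depend on how the libraries are scaled to each other.

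Klf15 restrains proliferation and steers amino acid and glucose metabolism, and glucocorticoids and progesterone induce it. It was 4.70 FPKM in d/d and 16.9 FPKM in f/f, a 0.278-fold level with a log2 ratio of -1.65, the lowest of the 10. At or below that ratio lay 474 of the 16263 genes, 2.91%. In d/d Klf15 was last of the 10 and Klf4 first, whereas in f/f they stood at nearly equal levels. The level of Klf4 over that of Klf15 was 24.6 in d/d and 0.979 in f/f. Klf15 (ENSMUSG00000030087) lies on the plus strand of chromosome 6 from 90462576 to 90475238.

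Klf9, the progesterone receptor partner, was 12.9 FPKM in d/d and 37.7 FPKM in f/f, with a log2 ratio of -1.48. At or below that ratio lay 609 genes, 3.74%. It was the seventh most abundant of the 10 in d/d and the second in f/f. Klf9 (ENSMUSG00000033863) lies on the plus strand of chromosome 19 from 23141226 to 23168134. The progesterone receptor gene itself, Pgr, did not pass the rule, at 57.4 FPKM in d/d and 43.7 FPKM in f/f.

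Klf2 is the shear-stress factor of endothelium and also keeps T cells quiescent. It was 16.3 FPKM in d/d and 44.2 FPKM in f/f, with a log2 ratio of -1.38 at or below which lay 701 genes, 4.31%. It was the sixth most abundant of the 10 in d/d and the first in f/f. Klf2 (ENSMUSG00000055148) lies on the plus strand of chromosome 8 from 72319033 to 72321656.

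Klf3 and Klf13 sat just under the 2-fold rule in the direction of Klf4. The CtBP-dependent repressor Klf3 was 35.6 FPKM in d/d and 18.3 FPKM in f/f, with a log2 ratio of 0.92. When FPKM was scaled to 14 reference genes this became 1.01 and passed the rule. Klf13, known in T cells as an activator of the chemokine gene Ccl5, was 33.7 FPKM in d/d and 17.8 FPKM in f/f, with a log2 ratio of 0.88. They were the second and the third most abundant of the 10 in d/d and the fifth and sixth in f/f. Of all genes, 1845 had a ratio at or above that of Klf3. A pair of gene models overlap Klf3, both at most 1.14 FPKM in either library, and a pair of models on the opposite strand of Klf13 are listed at 0 in both. Whether the library keeps strand is not stated in the labels.

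The remaining 3 genes differed little between the libraries. Klf6, an injury- and growth-factor-induced activator, was 25.7 FPKM in d/d and 29.8 FPKM in f/f. The TGF-beta-inducible repressor Klf10 was 17.6 FPKM in d/d and 19.0 FPKM in f/f, and its close relative Klf11 was 7.53 FPKM in d/d and 9.45 FPKM in f/f. Their log2 ratios of -0.20, -0.11 and -0.29 fall between the quartiles of all genes, which were -0.41 and 0.41. Klf5 falls there too, so that 4 of the 10 were inside the quartiles.

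The spread of levels within the family was wider in d/d. The 10 genes ran from 4.70 to 115 FPKM there, a 24.6-fold span between Klf15 and Klf4, and from 9.08 to 44.2 FPKM in f/f, a 4.86-fold span between Klf5 and Klf2. From high to low the order in d/d was Klf4, Klf3, Klf13, Klf6, Klf10, Klf2, Klf9, Klf5, Klf11 and Klf15. In f/f it was Klf2, Klf9, Klf6, Klf10, Klf3, Klf13, Klf15, Klf4, Klf11 and Klf5. With 1 library per genotype, neighbours in these orders cannot be separated from the variation between animals.

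**Figure D2:**
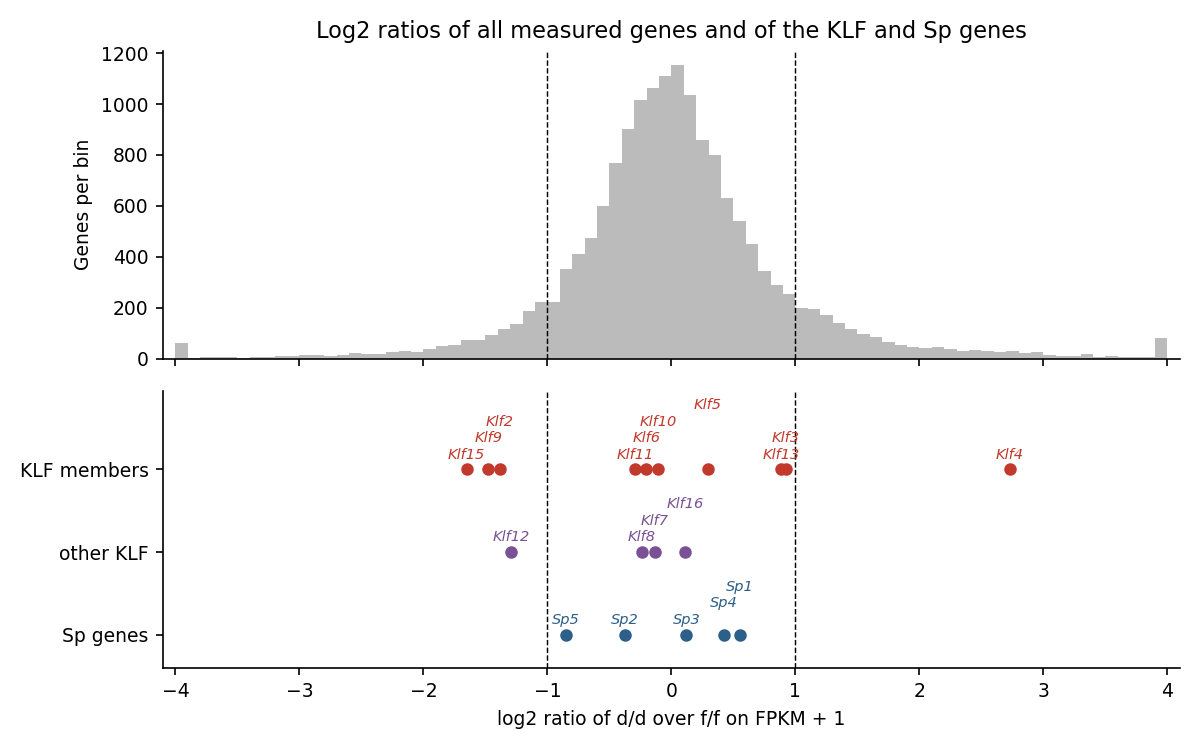
Upper panel, number of genes per bin of 0.1 in d/d over f/f log2 ratio on FPKM + 1 for 16263 genes, with ratios beyond 4 in size gathered in the end bins. Lower panel, each dot is 1 gene of the KLF and Sp family at 1 FPKM or more, and dashed lines mark the 2-fold rule. Klf4 lies at 2.73 and Klf2, Klf9 and Klf15 between -1.65 and -1.38.

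The 4 genes past the rule are shown with the 250 bases upstream of their RefSeq start, because these stretches hold letters that match the boxes KLF proteins bind. A match is a description and not a tested binding site. Sequences are RefSeq promoters on GRCm38.p6, written 5′ to 3′ on the gene's strand, with matches to the CACCC box (CACCC) and the GC box (GGGCGG) on either strand in capitals. Adjoining matches run together. RefSeq and GENCODE starts differ for a pair of them, so that the last 29 bases of the Klf2 stretch, its CACCC box included, lie inside the GENCODE gene, and the Klf4 stretch ends 9 bases short of it.
Klf4, chr4:55532476-55532725, minus strand: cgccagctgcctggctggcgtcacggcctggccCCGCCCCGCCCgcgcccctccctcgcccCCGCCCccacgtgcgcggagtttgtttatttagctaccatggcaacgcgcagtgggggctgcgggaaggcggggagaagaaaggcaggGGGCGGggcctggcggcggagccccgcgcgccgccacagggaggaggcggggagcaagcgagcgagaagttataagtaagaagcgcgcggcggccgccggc
Klf2, chr8:72318812-72319061, plus strand: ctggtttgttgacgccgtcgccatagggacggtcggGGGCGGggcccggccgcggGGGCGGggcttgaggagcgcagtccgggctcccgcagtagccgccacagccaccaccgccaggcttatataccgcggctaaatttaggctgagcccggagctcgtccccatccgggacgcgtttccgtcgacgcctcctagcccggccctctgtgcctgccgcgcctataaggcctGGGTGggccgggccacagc
Klf9, chr19:23140976-23141225, plus strand: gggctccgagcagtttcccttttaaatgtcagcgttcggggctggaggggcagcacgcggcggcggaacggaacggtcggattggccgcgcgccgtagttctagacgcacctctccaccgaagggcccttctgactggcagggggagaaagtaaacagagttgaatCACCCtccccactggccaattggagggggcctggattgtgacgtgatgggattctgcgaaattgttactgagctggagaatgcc
Klf15, chr6:90462326-90462575, plus strand: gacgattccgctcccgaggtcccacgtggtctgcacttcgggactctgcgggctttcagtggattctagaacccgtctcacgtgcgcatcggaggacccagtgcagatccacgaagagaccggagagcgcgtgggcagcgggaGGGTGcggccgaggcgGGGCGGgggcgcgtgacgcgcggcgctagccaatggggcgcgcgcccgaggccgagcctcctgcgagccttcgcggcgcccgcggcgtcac

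All 4 stretches are GC-rich, at 74% in Klf4, 71.2% in Klf2, 59.6% in Klf9 and 72% in Klf15, against a median of 52.4% over 32851 promoter stretches of the same length. The Klf4 stretch held 4 GC boxes, a pair of them overlapping by 1 base, and no CACCC box. The Klf2 stretch held 2 GC boxes and 1 CACCC box, the Klf15 stretch 1 of each, and the Klf9 stretch 1 CACCC box and no GC box. A CACCC box occurs in 52.0% and a GC box in 32.7% of all promoter stretches, so many promoters hold such matches. These shares, and those of the motifs below, were not matched for GC content. The KLF stretches with an entry ran from 59.6% GC in Klf9 to 78.4% in Klf3, all above the median. Of the 8 KLF genes with a promoter entry, 5 had a CACCC box and 7 a GC box.

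Other motifs set the printed promoters apart from one another. The MEF2 pattern, CTA and TAG with 4 bases between them, which is the same on both strands, was found in the Klf2 stretch at positions -118 to -109 and in no other of the 8, and 3.20% of all promoter stretches hold it. The E-box CACGTG, found in 6.02% of promoter stretches, occurred 2 times in Klf15, at -228 and -172, and once in Klf4, at -182. It was also found in Klf6 and Klf11, and Klf4, Klf6, Klf11 and Klf15 did not share a direction in the FPKM values. The core of the cyclic AMP response element (TGACG on either strand, 17.8% of stretches) was found in all 4 printed promoters and in 5 of the 8. The steroid receptor core TGTTCT, on either strand, was found in none of the 8 and in 16.1% of all stretches, which says only that these letters are absent from these windows. The motifs were chosen after the values and sequences were seen.

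Of 7 other KLF genes, 4 reached 1 FPKM. Klf12, a CtBP-dependent repressor, was the one past the 2-fold rule, at 0.445 FPKM in d/d and 2.55 FPKM in f/f, a log2 ratio of -1.30. It reached 1 FPKM in f/f alone, so it could be counted only as lower or as neither, and it no longer passed with a pseudocount of 5 FPKM, at -0.47. Klf16 was 13.6 FPKM in d/d and 12.6 FPKM in f/f, Klf7 was 9.26 in d/d and 10.3 in f/f, and Klf8 was 1.09 in d/d and 1.47 in f/f. The erythroid factor Klf1 stayed under 1 FPKM in both libraries, and Klf14 and Klf17 are listed at 0 in both.

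None of the 5 measured Sp genes passed the rule. The broadly expressed Sp1 was 34.5 FPKM in d/d and 23.2 FPKM in f/f, and Sp3, which competes for the same GC boxes, was 41.0 FPKM in d/d and 37.6 FPKM in f/f. Sp2 was 5.52 FPKM in d/d and 7.45 FPKM in f/f. The log2 ratios of the 5 ran from -0.85 for Sp5 to 0.55 for Sp1. With a pseudocount of 0.1 FPKM Sp5, at 0.524 FPKM in d/d and 1.75 FPKM in f/f, came to -1.57 and passed it. Sp4 was 3.60 FPKM in d/d and 2.43 FPKM in f/f, Sp6 and Sp7 stayed under 1 FPKM in both libraries, and Sp8 and Sp9 are listed at 0 in both.

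Genes for the proteins that KLF factors recruit stayed under 2-fold. None of 12 corepressor and coactivator genes passed the 2-fold rule, with a median log2 ratio of 0.04. The corepressor Ctbp1 was 189 FPKM in d/d and 190 FPKM in f/f, the histone deacetylase Hdac2 was 81.5 in d/d and 97.9 in f/f, and Sin3b was 82.4 in d/d and 77.7 in f/f. The ratios furthest from 0 in each direction were those of Sap30, of the Sin3 complex, at 16.2 FPKM in d/d and 29.3 FPKM in f/f (-0.82), and Hdac3, at 60.2 FPKM in d/d and 39.97 FPKM in f/f (0.58), both named after their values were seen. None of 6 genes for ubiquitin ligases that act on KLF or TGF-beta pathway proteins passed either, with a median of 0.38. Among these Siah1a was 24.3 FPKM in d/d and 15.8 FPKM in f/f, Smurf2 was 22.3 in d/d and 18.2 in f/f, and Btrc was 22.0 in d/d and 13.2 in f/f.

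Upstream of Klf2 and Klf4 in endothelium stands the kinase cascade of MEK5 and ERK5, which acts through MEF2 factors. Of its 7 genes 1 was lower and none was higher, with a median log2 ratio of -0.45. The lower gene was Mef2a, at 19.1 FPKM in d/d and 40.9 FPKM in f/f. Its log2 ratio of -1.06 fell under the rule when scaled to the reference genes, at -0.98, and with a pseudocount of 5 FPKM, at -0.93. Mapk7, which encodes ERK5, was 14.6 in d/d and 16.6 in f/f (Mapk7 named after its values were seen). Upstream of Klf10 and Klf11 stands TGF-beta, and none of 9 genes for its ligands, receptors and Smads passed the rule, with a median of 0.07. The receptor Tgfbr2 was 92.9 FPKM in d/d and 88.6 FPKM in f/f, and Smad4 and Smad2 were 35.0 and 24.5 in d/d, against 37.5 and 23.8 in f/f.

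Genes that glucocorticoids and progesterone are known to induce, as they do Klf9 and Klf15, tended to lower levels. The rule found 5 of 10 lower and 1 higher, and their median log2 ratio was -0.98. The zinc finger gene Zbtb16 was 0.717 FPKM in d/d and 12.3 FPKM in f/f, and it reached 1 FPKM in f/f alone. Fkbp5, which encodes a steroid receptor cochaperone, was 7.11 in d/d and 29.4 in f/f, the clock gene Per1 was 4.90 in d/d and 16.9 in f/f, the leucine zipper gene Tsc22d3 was 20.3 in d/d and 53.0 in f/f, and the metallothionein Mt2 was 215 in d/d and 525 in f/f. The higher gene was the stress-induced mTOR inhibitor Ddit4, at 146 FPKM in d/d and 37.1 FPKM in f/f. Progesterone-responsive genes were already known to be lower in this d/d library, so the direction of this list is not independent evidence. None of 4 steroid receptor genes passed the rule. Beside Pgr, the estrogen receptor Esr1 was 95.2 FPKM in d/d and 52.8 FPKM in f/f, and the glucocorticoid receptor Nr3c1 was 22.0 in d/d and 20.2 in f/f.

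Textbook targets of Klf4 and Klf5 in epithelia were mostly higher. The rule found 7 of 10 measured genes higher and none lower, and their median log2 ratio was 1.76. The list does not separate genes that these factors induce from genes that they repress. The keratin Krt19 was 348 FPKM in d/d and 4.87 FPKM in f/f, the cornified envelope gene Sprr1a was 75.3 in d/d and 0.390 in f/f, and the epithelial transcription factor Elf3 was 355 in d/d and 6.19 in f/f. E-cadherin, Cdh1, was 154 FPKM in d/d and 20.8 FPKM in f/f, and the cell cycle inhibitor Cdkn1a was 74.7 in d/d and 14.9 in f/f. Involucrin, Ivl, was 1.69 in d/d and 0.123 in f/f, and it did not pass with a pseudocount of 5 FPKM, at 0.39. Ivl and Sprr1a reached 1 FPKM in d/d alone, so they could be counted only as higher or as neither. Proliferation targets did not share this direction, since cyclin D1, Ccnd1, was 60.9 FPKM in d/d and 56.2 FPKM in f/f, Birc5 was 57.0 in d/d and 90.2 in f/f, and Ccnb1 was 8.54 in d/d and 12.8 in f/f (these 3 named after their values were seen). Krt19, Elf3 and Cdh1 are also epithelium markers, and such genes were known to be higher in these data when the list was made.

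The 6 genes of the MCM helicase, which Klf4 and Klf15 are known to act on in opposite ways in the uterine epithelium, all had log2 ratios below 0, from -0.86 to -0.19, and none passed the rule. Mcm6 was 52.2 FPKM in d/d and 79.2 FPKM in f/f, Mcm3 was 46.3 in d/d and 64.5 in f/f, and Mcm5 was 32.5 in d/d and 59.6 in f/f. Mcm2 had the ratio nearest to 0, at 35.7 FPKM in d/d and 40.8 FPKM in f/f (named after its values were seen). None of 4 metabolic targets of Klf15 passed the rule. Bcat2, a branched-chain amino acid transaminase, was 45.0 FPKM in d/d and 47.9 FPKM in f/f, the glucose transporter Slc2a4 was 10.8 in d/d and 6.63 in f/f, and the proline dehydrogenase Prodh was 3.13 in d/d and 7.03 in f/f. Prodh passed as lower with a pseudocount of 0.1 FPKM, at -1.14, and with equal upper quartiles, at -1.03.

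Targets of Klf2 and Klf4 in vessels, and of Klf2 and Klf13 in lymphocytes, went both ways. The vessel list mixes genes that Klf2 induces (Nos3, Thbd) with genes that it represses (Edn1, Vcam1). It also does not separate targets of Klf2, at a log2 ratio of -1.38, from those of Klf4, at 2.73. Of 6 measured endothelial targets 1 was lower and none was higher, with a median log2 ratio of -0.72. The lower one was Angpt2, an angiopoietin, at 2.75 FPKM in d/d and 6.77 FPKM in f/f. Its log2 ratio of -1.05 no longer passed at -0.99 when scaled to the reference genes or at -0.60 with a pseudocount of 5 FPKM. Thrombomodulin, Thbd, was 24.2 in d/d and 47.3 in f/f, and the nitric oxide synthase Nos3 was 4.04 in d/d and 7.65 in f/f. The adhesion gene Vcam1 was 7.17 in d/d and 4.22 in f/f, and endothelin, Edn1, was 6.37 in d/d and 5.31 in f/f (these 4 named after their values were seen). All 9 endothelium markers, described further on, had ratios below 0, with a median log2 ratio of -0.96. The part of endothelium in the levels of the vessel targets was not tested. None of 4 measured lymphocyte targets of Klf2 and Klf13 passed the rule. Ccl5, the gene that Klf13 activates in T cells, was 21.4 FPKM in d/d and 40.8 FPKM in f/f. The sphingosine phosphate receptor S1pr1, which is on the vessel list too, was 12.1 in d/d and 19.8 in f/f. The interleukin receptor gene Il7r was 2.05 in d/d and 1.16 in f/f (named after its values were seen). T cell markers were mostly higher and natural killer cell markers lower in d/d, with the values given further on. The part of these cells in the levels of the lymphocyte targets was not tested.

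**Figure D3:**
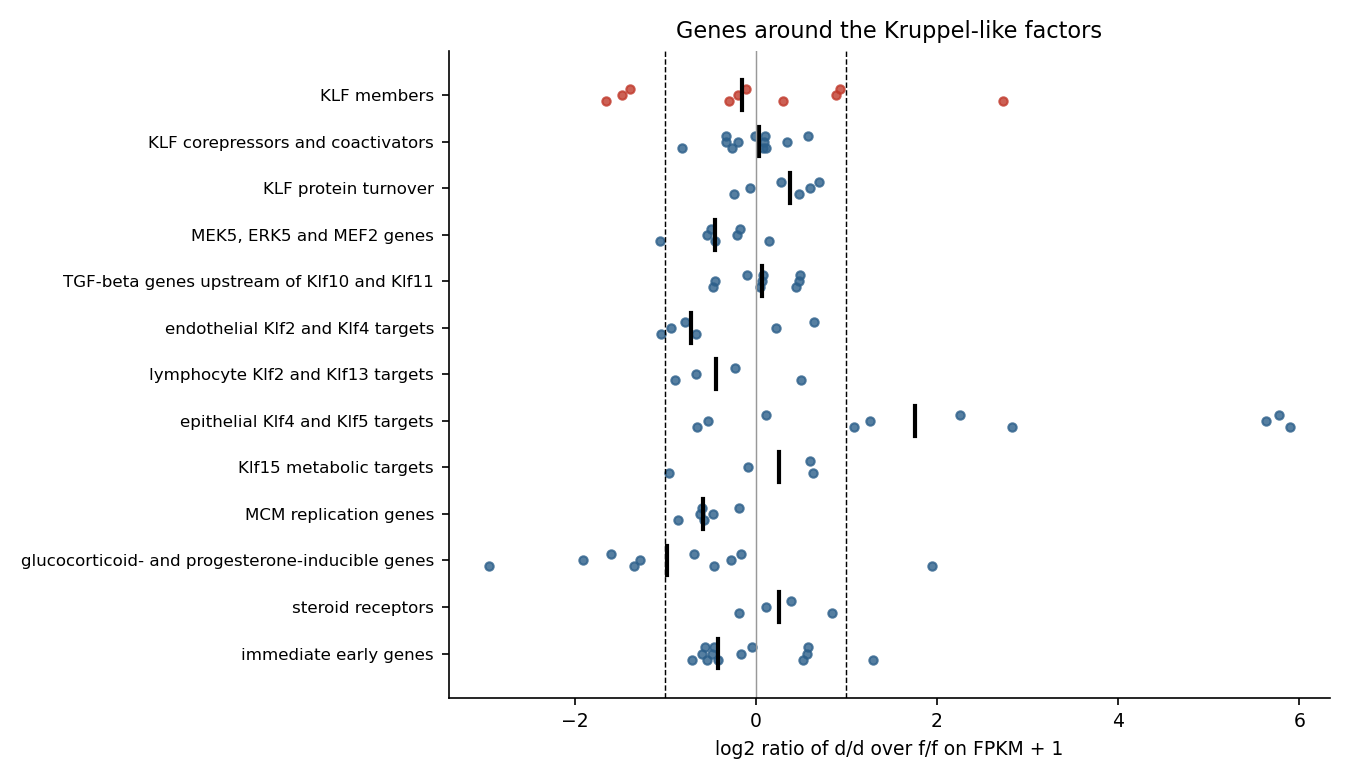
Each dot is the d/d over f/f log2 ratio on FPKM + 1 of 1 gene at 1 FPKM or more, in rows for the 10 KLF genes and for lists of partners, upstream genes and targets, with the median as a bar and the 2-fold rule as dashed lines. Epithelial Klf4 and Klf5 targets reach 5.89, and the glucocorticoid- and progesterone-inducible genes have their median at -0.98.

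Marker levels of the main cell types of the uterus differed between the libraries. All 9 epithelium markers had ratios above 0 and 8 were higher, and their summed level was 2061 FPKM in d/d and 264 FPKM in f/f, 7.80-fold. None of them was at 0. The log2 ratios of the 9 ran from 0.64 for Krt18 to 5.89 for Krt19, so the sum depends on which markers it holds, and 3 of them (Krt19, Elf3 and Cdh1) are on the list of Klf4 and Klf5 targets. Klf4, at 2.73, lay inside that range and Klf5, at 0.29, below it. Per 1000 FPKM of the 9 markers Klf4 was 56.0 FPKM in d/d and 62.7 FPKM in f/f. Without those 3 markers, a choice made after the values were seen, the sum was 5.19-fold and Klf4 was 95.8 per 1000 FPKM in d/d and 71.3 in f/f. Macrophage markers were higher in 4 of 6 cases, with a summed level of 1169 FPKM in d/d and 450 FPKM in f/f. Set against that sum, Klf4 was 98.7 per 1000 FPKM in d/d and 36.8 in f/f. The part of these cell types in the level of Klf4 was not tested.

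All 9 endothelium markers had ratios below 0 and 4 were lower, with a summed level of 205 FPKM in d/d and 413 FPKM in f/f, 0.496-fold, and none at 0. Klf2 was 79.6 FPKM per 1000 FPKM of these markers in d/d and 107 in f/f. The log2 ratios of the 9 ran from -1.26 to -0.49, and that of Klf2 was -1.38. Endometrial stroma markers were lower in 5 of 9 cases and smooth muscle markers in 2 of 7. Their summed levels were 2963 and 3187 FPKM in d/d, against 4677 and 4847 FPKM in f/f. The stroma markers did not share 1 size of difference, with a median log2 ratio of -1.72. Hoxa10 at -2.47, Hand2 at -2.28, Hoxa11 at -2.23, Pdgfra at -1.84 and Vim at -1.72 lay further from 0 than Klf15 at -1.65 and Klf9 at -1.48, while the other 4, abundant matrix genes, lay between -0.29 and -0.13 and carry much of the sum. Per 1000 FPKM of the stroma markers Klf9 was 4.35 FPKM in d/d and 8.06 FPKM in f/f. Klf15 was 1.59 in d/d and 3.61 in f/f on that measure. Smooth muscle markers ran from -1.81 to 0.24. The part of endothelium, stroma and muscle in these levels was not tested.

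Blood cell and fat cell markers differed as well. Natural killer cell markers were lower in all 6 cases, with summed levels of 4.05 FPKM in d/d and 190 FPKM in f/f, but 5 of them reached 1 FPKM in f/f alone and could be counted only as lower or as neither. T cell markers were higher in 4 of 5 measured cases, at 59.2 FPKM in d/d and 11.6 FPKM in f/f, and 1 of them, Cd4, reached 1 FPKM in d/d alone. Fat cell markers were higher in 4 of 4 measured cases, at 107 FPKM in d/d and 4.49 FPKM in f/f, with Plin1 and Lep at 0 in f/f. Of these 4, Adipoq and Cfd reached 1 FPKM in d/d alone and could be counted only as higher or as neither. B cell markers were higher in 1 of 2 measured cases, at 8.97 FPKM in d/d and 2.57 FPKM in f/f. Neutrophil markers were higher in 2 of 5 cases, at 31.4 FPKM in d/d and 13.5 FPKM in f/f. Of these, Ly6g was 9.52 in d/d and 0 in f/f, and S100a8 was 8.08 in d/d and 8.21 in f/f. Cd79a, Ly6g and Mpo reached 1 FPKM in d/d alone and could be counted only as higher or as neither. Red blood cell markers had none past the rule among 3 measured, at 191 FPKM in d/d and 234 FPKM in f/f. What these cells add to Klf2, Klf4 and Klf13, which leukocytes also express, was not tested.

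**Figure D4:**
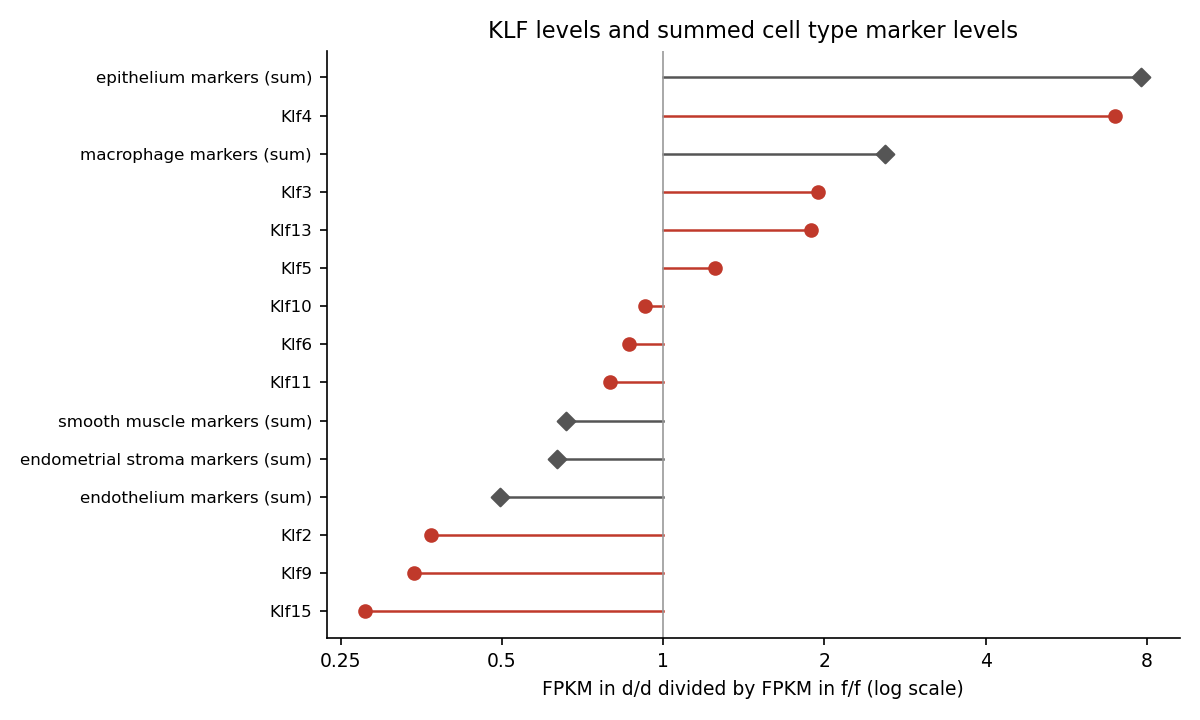
Level in d/d divided by level in f/f on a log axis, for each KLF gene (circles) and for the summed FPKM of 5 cell type marker lists (diamonds), 1 library per genotype. Klf4 stands at 6.97 and the epithelium sum at 7.80, a sum of markers whose own log2 ratios ran from 0.64 to 5.89. Sums follow their most abundant members. Of the stroma markers 5 lay lower than Klf9 and Klf15, and the other 4 had log2 ratios between -0.29 and -0.13.

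Klf2, Klf4, Klf6 and Klf10 belong to the genes that cells induce within minutes of a stimulus, which includes tissue handling. Of 13 measured immediate early genes 1 was higher and none was lower, with a median log2 ratio of -0.42. Fos was 22.8 FPKM in d/d and 8.72 FPKM in f/f, whereas Egr1 was 9.65 in d/d and 13.9 in f/f and Junb was 90.5 in d/d and 63.0 in f/f (Egr1 and Junb named after their values were seen). Of the KLF genes named here Klf4 was higher, Klf2 was lower, and Klf6 and Klf10 were near level, as given above. The part of tissue handling in these levels was not tested. None of 14 reference genes passed the rule, with a median log2 ratio of -0.09. They ran from -0.996 for Polr2a to 0.96 for Gusb, both close to the rule and both named after their values were seen. Of the 14, Actb was 11908 FPKM in d/d and 8936 FPKM in f/f, B2m was 1174 in d/d and 1346 in f/f, and Rplp0 was 819 in d/d and 782 in f/f.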

How the data were processed

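RNA of whole uterus from 2 libraries, 1 per genotype, was sequenced after TRIzol extraction and TruSeq library preparation, per the labels' protocols. The authors deposited 1 FPKM value per gene and library. Alignment to mm10 with HISAT2 2.2.1 and estimation with Cufflinks 2.2.1 are named in the submitters' processing notes, without an annotation release. Both files list 55483 rows; rows that share a symbol were summed to 55363 genes. Cufflinks shares fragments between overlapping and similar transcripts, which can move values of short or overlapping gene models.

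For every gene FPKM + 1 in d/d was divided by that in f/f and the log2 taken, and the 16263 genes that reached 1 FPKM in one library or both were counted, in Python 3.11.15 with pandas 2.3.3. With 1 library per genotype no test, standard error or p-value was made. The pseudocount understates changes of genes near 1 FPKM. The script was tested on simulated data with planted changes larger than the 2-fold rule and an assumed noise. That tests the code and not the variation between animals. Alternatives covered the pseudocount, the scaling, the filter, the fold rule and rows sharing a symbol.

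The members and gene lists were chosen with earlier results of these data known. All KLF and Sp genes were named, and from every other list up to 6 genes past the rule with the largest ratios or, if there were none, the top 3 by mean FPKM. Some genes within this rule are not reported. Positions and transcript lengths are from GENCODE M21, promoters from RefSeq.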

Additional observations from a re-analysis of the deposited data

How the results depend on the processing

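The direction of all 10 KLF genes held under each of 8 alternatives of pseudocount, scaling and row choice. Only the scalings could have reversed a direction. A pseudocount cannot change the sign of a ratio, and each of the 10 genes has 1 row, so row choice left its value as it was. Klf4 ranged from 2.48 to 2.81 on the log2 scale, Klf2 from -1.48 to -1.21, Klf9 from -1.57 to -1.25 and Klf15 from -1.83 to -1.18, and these 4 kept their call. The count of higher KLF genes was 2 when scaled to the reference genes (with Klf3) and 3 under a 1.5-fold rule (with Klf3 and Klf13). The count of lower ones was 1, Klf15, under a 3-fold rule. Among the other KLF and Sp genes the count of lower ones was 2 with a pseudocount of 0.1 FPKM, and 0 with one of 5 FPKM or with a filter of 5 FPKM, as Klf12 and Sp5 are low. Equal upper quartiles moved the median of all genes to -0.10 and put 49.8% of called genes higher, against 55.1% as deposited. Without the 3 epithelium markers that are also Klf4 and Klf5 targets, left out after the values were seen, the summed epithelium level was 5.19-fold in place of 7.80-fold. No paired analysis was possible because each genotype has 1 library and the labels give no replicate numbers. Without replicates, variation between animals, dissection and library could not be separated from genotype, and fragment counts behind each FPKM are estimates.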
